A study of Gallus gallus with 6 samples.

Results

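The miRNAs described here are miR-10 and miR-196, both encoded inside HOX clusters, and miR-100, a relative of miR-10. They were taken as every line named mir-10, mir-196 or mir-100 in the lists of known miRNAs of 6 chick heart libraries, together with those lines of the lists of sequences without a miRBase name whose mature sequence overlapped such a line by at least 15 nt on the same chromosome and strand. With each mature sequence counted once per library this gave 18 entries of 1102, or 10 of 830 distinct sequences. miR-10 and miR-100 were listed in 6 libraries and miR-196 in 5. Small RNA had been sequenced from hearts of Gallus gallus embryos on days 4, 6, 8, 10, 12 and 14 of incubation (HH24, HH29, HH34, HH36, HH38 and HH40), with no treatment and no altered genotype. Each stage was 1 pooled RNA sample and 1 library, so there is no replicate, no test between stages was made, and the intervals given are 95% intervals that cover counting error only. In whole heart RNA, fewer cells that make a miRNA and less of it per cell cannot be told apart.

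HOX genes stand in 4 clusters in vertebrates such as the chick and give the body axis its regional identity, and each cluster also holds miRNA genes that are transcribed with its mRNAs. miR-10 genes lie near the HOX4 paralogues and miR-196 genes near the HOX9 paralogues, so that miR-196 is a miRNA of the posterior body, known in mouse for cleaving the mRNA of Hoxb8. miR-100 and its near copy miR-99 descend from the same ancestor as miR-10 but lie outside the HOX clusters, beside let-7 and miR-125 genes. The HOX label therefore holds for miR-10 and miR-196 and not for miR-100. A miRNA finds its target mRNAs mainly through its seed, bases 2 to 8 from its 5′ end.

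The sequences are shown because the form listed for a miRNA differed between days, and in miR-10 the difference reached the seed. Seeds are in capitals, sequences run 5′ to 3′ in DNA letters, and each was copied from the deposited lists.
miR-10 on days 4, 6, 12 and 14: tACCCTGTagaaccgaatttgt
miR-10 on day 8: aCCCTGTAgaaccgaatttgtgt
miR-10 on day 10: aCCCTGTAgaaccgaatttgt
miR-100 on days 4, 6 and 14: aACCCGTAgatccgaacttgtg
miR-99, for comparison: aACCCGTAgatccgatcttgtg
miR-196 on days 4, 6 and 12: tAGGTAGTttcatgttgttggg
let-7, for comparison: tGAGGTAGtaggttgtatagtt
miR-100 and miR-99 had the same seed and differed by 1 substitution, A16T, counted from 1 at the 5′ end of miR-100. miR-10 and miR-100 shared no unbroken run longer than 5 nt and had different seeds. No alignment with gaps was made, so the length of this run does not measure how alike they are. miR-196 and let-7 shared the 7-nt run AGGTAGT, which is the whole seed of miR-196 but begins 1 base later in let-7.

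Each miRNA was mapped to few loci in the lists. On the Gallus gallus v.2.1 genome used for the lists, miR-10 mapped to 1 locus, chr7:17389110-17389131 on the minus strand, and miR-100 to 1 locus, chr24:3372906-3372927 on the plus strand. The 22-nt miR-196 mapped equally to chr2:32586206-32586227 on the minus strand and to chr27:3553120-3553141 on the plus strand, so its reads could not be divided between these loci. By gene order in RefSeq on the GRCg7b assembly, used here for names only, MIR10B on chromosome 7 lay inside the span of HOXD3 with HOXD4 and HOXD8 on either side. MIR196B on chromosome 2 lay inside the span of HOXA9 between HOXA7 and HOXA10, and MIR196A1 on chromosome 27 lay between HOXB13 and HOXB8. MIR100 on chromosome 24 stood between UBASH3B and SORL1, within 50 kb of MIRLET7A2 and MIR125B-1. The same annotation also places MIR10A inside HOXB3 on chromosome 27 and MIR196A2 between HOXC9 and HOXC10 on chromosome 34, and neither locus was among the lines analysed here. Whether the Gallus gallus v.2.1 genome holds these loci was not checked.

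The libraries differed widely in depth and in the length of what they listed. The totals behind RPM (reads per 1000000 reads of that total, the unit of level used here) ran from 228290 reads on day 14 to 37495805 on day 12, and the reads of all listed sequences from 16000 on day 14 to 7749271 on day 12. Of the known sequences, 88.2% were 23 nt long on day 8, 93.4% were 21 nt long on day 10 and 92.7% were 22 nt long on day 14, while 22 nt was the commonest length on days 4, 6 and 12 at 55.3 to 55.9%. No library listed overlapping sequences, so a level below is that of 1 listed form of each locus and not the sum of its forms. Sums over several sequences are given for miR-196 on day 8, where its loci had a sequence each, and for let-7. The RPM of other families and the ratios counted by family are likewise sums over the sequences listed. Of 5 muscle families looked for, 0 to 2 were listed per library, none on day 4. The highest sum, 209064 RPM on day 10, was nearly all miR-499 (207723 RPM), which was listed on that day alone, while miR-133 was highest on day 8 at 25174 RPM and stood at 1341 RPM on day 10. The families mir-1 and mir-208 were not among the lines analysed, nor were mir-451 of red blood cells and mir-223 of white blood cells. The sum of red blood cells is thus miR-144 alone. The endothelial miR-126 reached 203858 RPM on day 10 and was not among the lines analysed of day 8. The summed families of red blood cells (0 to 638 RPM), white blood cells (0 to 2866 RPM), neural tissue (0 to 838 RPM), liver (0 to 534 RPM) and epithelia (4.65 to 1075 RPM) had lower maxima but were not below muscle or miR-126 on every day, and the part of cell makeup in the levels below was not tested.

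miR-10 was the most abundant listed miRNA of the early heart. The 22-nt form had 14161 reads on day 4, which was 5070 RPM (4987 to 5154), and 2403702 reads on day 6, which was 259965 RPM. On day 12 it had 1027513 reads, or 27403 RPM, and on day 14 it had 3164 reads, or 13860 RPM (13381 to 14351). The 23-nt form of day 8 had 59568 reads (10658 RPM) and the 21-nt form of day 10 had 8045 reads (2347 RPM). Day 6 was thus far above every other day, and the lowest RPM belonged to a day on which only a form with a shifted start was listed. Among the families of each list miR-10 ranked first on days 4, 6 and 12, second on day 14, 4th of 72 on day 8 and 11th of 86 on day 10.

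miR-100 had a different course in RPM, with its listed forms lowest on day 4 and highest on day 10. It had 41 reads on day 4 (14.7 RPM, 10.5 to 19.9) and 69146 reads on day 6 (7478 RPM), both as the 22-nt form. On day 8 its 23-nt form had 23426 reads (4191 RPM). The 21-nt form had 78248 reads on day 10 (22826 RPM) and 301263 reads on day 12 (8035 RPM). On day 14 the 22-nt form was back with 208 reads (911 RPM, 792 to 1044). The counting intervals of days 4 and 14 were narrow against the distance between these days. The rank of miR-100 among the listed families went from 12th of 28 on day 4 to 3rd of 86 on day 10, and it was 11th of 31 on day 14. Relative to the clean reads of the study its highest level was that of day 6.

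miR-196 held a small part of the listed reads in each heart library that listed it. It had 23 reads on day 4 (8.23 RPM, 5.22 to 12.4) and 2507 reads on day 6 (271 RPM, 261 to 282). On day 8 it had 12 reads (2.15 RPM, 1.11 to 3.75), on day 10 it had 25 reads (7.29 RPM, 4.72 to 10.8), and on day 12 it had 83 reads (2.21 RPM, 1.76 to 2.74). The intervals of days 4 and 10 overlapped each other, as did those of days 8 and 12, and the level of day 6 stood alone. On day 14 miR-196 was not among the lines analysed, where the lowest listed line had 6 reads or 26.3 RPM. A level like that of any day except day 6 was not detectable in that library. Among the mature forms, only the 12 reads of day 8 told the loci apart, since base 23 differs between them: 6 reads (2.20 to 13.1) had the form of chromosome 2 and 6 reads (2.20 to 13.1) that of chromosome 27. The lowest listed line of day 8 also had 6 reads, so the equal counts cannot be read as an even split.

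**Figure D1:**
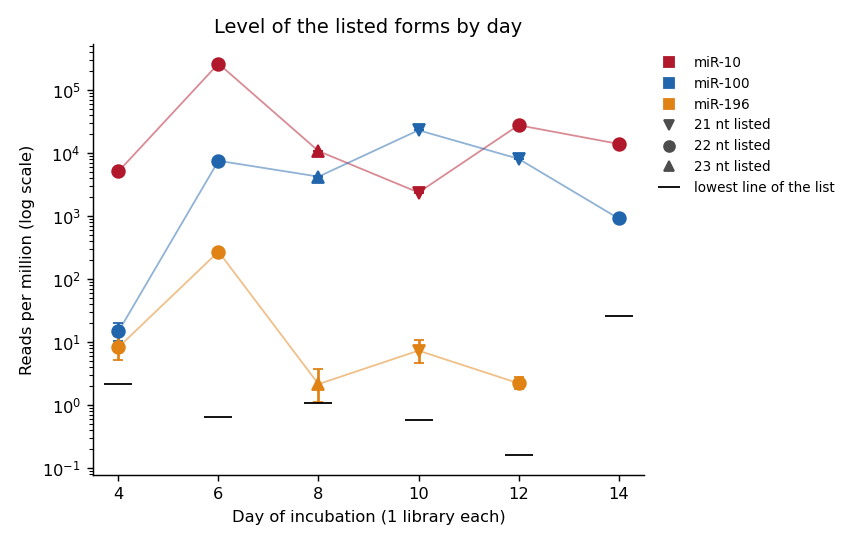
Level in RPM (log scale) of miR-10, miR-100 and miR-196 by day, 1 library each, with 95% Poisson intervals of the reads as bars, the length of the listed form as the marker, and the lowest listed line of each library as a dash. miR-10 was highest on day 6 at 259965 RPM, miR-100 on day 10 at 22826 RPM, and miR-196 on day 6 at 271 RPM.

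As a share of all listed reads, miR-10 dominated the first stages. It held 80.6% (80.0 to 81.2, Wilson) of the listed reads on day 4 and 72.3% on day 6. It held 4.89% on day 8 and 0.454% on day 10, and then 13.3% on day 12 and 19.8% (19.2 to 20.4) on day 14. Together the 3 miRNAs held 80.9, 74.5, 6.82, 4.88, 17.1 and 21.1% of the listed reads from day 4 to day 14. On this scale miR-10 and miR-196 stood highest on day 4 and not on day 6. All listed sequences together made up 0.629% of the RPM total of day 4 and 35.9% of that of day 6. miR-100 held 0.233% on day 4, between 1.30 and 4.42% on the other days, and the larger share of the members' reads on day 10 alone. miR-196 held 0.131% on day 4 and 0.0754% on day 6, and no more than 0.00141% on days 8, 10 and 12. The sequences ranked behind miR-10 were miR-26 with 5.82% on day 4 and miR-148 with 3.94% on day 6.

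**Figure D2:**
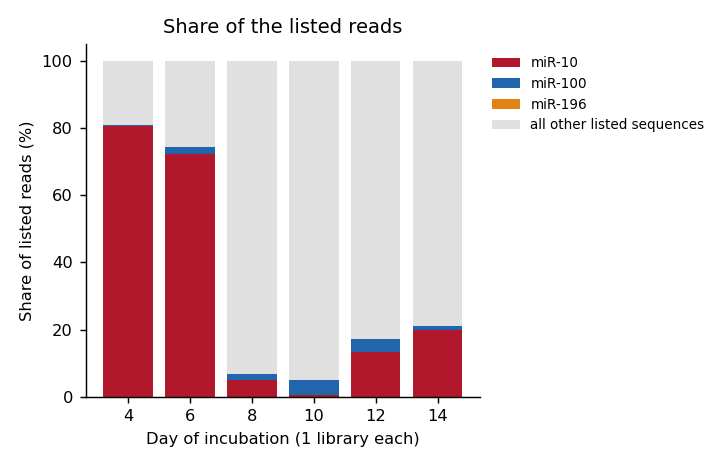
Share of the listed reads in percent held by miR-10, miR-100, miR-196 and all other listed sequences, by day, 1 library each. miR-10 fills 80.6% of the bar of day 4 and 72.3% of that of day 6, and miR-196 is too small to be seen.

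The ends of the listed forms moved in a different way in miR-10 than in miR-100 and miR-196. miR-100 began at the same base in every library, and only its 3′ end differed, 1 nt longer on day 8 and 1 nt shorter on days 10 and 12. miR-196 likewise kept its 5′ end, with 23 nt on day 8 and 21 nt on day 10. miR-10 began 1 nt later on days 8 and 10, with its 3′ end 2 nt longer on day 8 and unchanged on day 10, so the seed of the listed form was CCCTGTA on those days and ACCCTGT on days 4, 6, 12 and 14. Both shifted forms of miR-10 stood in the lists without a miRBase name, as did the 23-nt forms of miR-100 and miR-196, while the 21-nt forms of miR-100 and miR-196 stood in the known lists.

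A start 1 nt later was less frequent than a changed 3′ end in the lists compared. Of 122 arms listed on both days 8 and 6, the form of day 8 began 1 nt later in 2 (1.64%), miR-10 among them, and began elsewhere than that of day 6 in 16 (13.1%). Of 109 arms listed on both days 10 and 6, the form of day 10 began 1 nt later in 4 (3.67%), again with miR-10, and the 5′ end differed in 5 (4.59%). Against day 12, which also lists the usual start of miR-10, the share was higher on day 10, with 10 of 117 arms (8.55%) beginning 1 nt later and 15 (12.8%) with another start, while on day 8 it was 3 of 116 (2.59%) and 15 (12.9%). 3′ ends differed far more often, in 50.0% of the arms between days 8 and 6 and in 74.3% between days 10 and 6. The commonest length differed between these lists. An arm that keeps its start but is listed at another length must end elsewhere, so this excess follows in part from the lengths listed. The lists of days 8 and 10 hold mostly 1 length, and no miR-10 form with the usual start was among the lines analysed of those days. miR-100 and miR-196 kept their start there, at 23 nt on day 8 and 21 nt on day 10. Why miR-10 differed was not tested. Reads of the 22-nt miR-10 on days 8 and 10 were not analysed here, and the levels of those days cannot be read as the whole of miR-10.

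**Figure D3:**
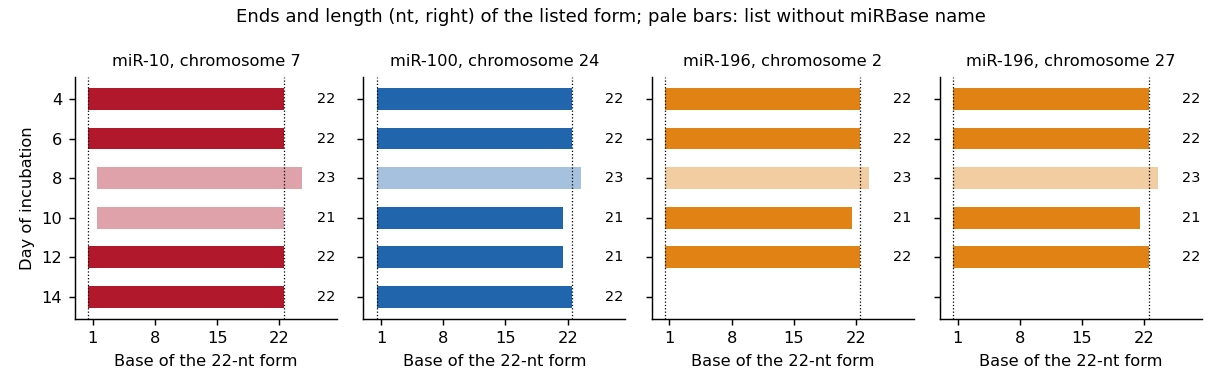
Start, end and length of the form listed for each locus and day, along the bases of the 22-nt form (dotted lines mark its ends), with pale bars for the lists without a miRBase name. The miR-10 forms of days 8 and 10 begin 1 nt later, while those of miR-100 and miR-196 differ at the 3′ end only.

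Forms of 1 length can be compared where the same sequence was listed in both libraries. Between days 4 and 6 all 3 were higher on day 6, as were 100% of the 30 shared sequences by at least 2-fold, so the direction says nothing particular about them. miR-100 had the highest ratio of the 30, 509-fold, with a log2 ratio of 8.99 (8.55 to 9.47) beside a median of 5.88 over all 30. miR-10, 51.3-fold higher with a log2 ratio of 5.68, was 19th of the 30, and miR-196, 32.9-fold higher with a log2 ratio of 5.04 (4.45 to 5.70), was 21st. The ratio of miR-100 was thus above the median ratio of the 30 by 3.11 on the log2 scale, and that of miR-10 stood close to this median.

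Between days 6 and 12, a pair whose lists both held mixed lengths, miR-10 and miR-196 were lower on day 12. The log2 ratio of day 12 over day 6 was -3.25 for miR-10, or 9.49-fold lower, and -6.94 (-7.27 to -6.62) for miR-196, or 122-fold lower. Of the 112 sequences listed on both days, 55.4% were lower on day 12 by at least 2-fold and 21.4% were higher, and the median log2 ratio was -1.24. miR-196 had the second lowest ratio of the 112 and miR-10 the 15th lowest. Counted by family, with the lines that lack a miRBase name added, 50.6% of 85 families were lower by at least 2-fold and 18.8% were higher, with a median log2 ratio of -1.02. In these sums miR-100 had a log2 ratio of 0.10, from 22 nt on day 6 to 21 nt on day 12, which became -0.0096 relative to the clean reads of the study and 0.90 as a share of the known miRNA reads. miR-99, listed with 22 nt on both days, was higher on day 12 with a log2 ratio of 1.32. The let-7 family, summed over 9 sequences on day 6 and 12 on day 12, had one of 3.19. Single let-7 sequences listed on both days ran from -0.47 to 6.67. Only MIRLET7A2 beside MIR100 and MIRLET7C beside MIR99A lay within 50 kb of these genes, so the sum is not that of cluster partners alone.

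The library of day 14 was the shallowest, and its list held mostly 22-nt forms. Between days 12 and 14 miR-10 had a log2 ratio of -0.98, 1.98-fold lower, beside a median of -1.41 over 33 shared sequences, of which 63.6% were lower on day 14 by at least 2-fold and 9.09% higher. Between days 4 and 14 miR-10 had a log2 ratio of 1.45 and miR-100 one of 5.96 (5.47 to 6.48). All 20 sequences shared by those libraries (100%) were higher on day 14 by at least 2-fold, with a median of 4.78, and miR-10 had the lowest ratio of the 20 while miR-100 had the 5th highest. Between days 6 and 14 miR-10 was 18.8-fold lower on day 14 (log2 ratio -4.23), the lowest of 29 shared sequences, and miR-100 was 8.21-fold lower (log2 ratio -3.04), the 4th lowest. In that pair 48.3% were lower by at least 2-fold and 10.3% higher, with a median of -0.80. These comparisons use the same libraries in turn and are not independent of each other. Between days 10 and 12 the 21-nt miR-100 had a log2 ratio of -1.51 beside a median of -2.93 over 30 sequences, of which 80% were lower on day 12 by at least 2-fold and 20% were higher.

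**Figure D4:**
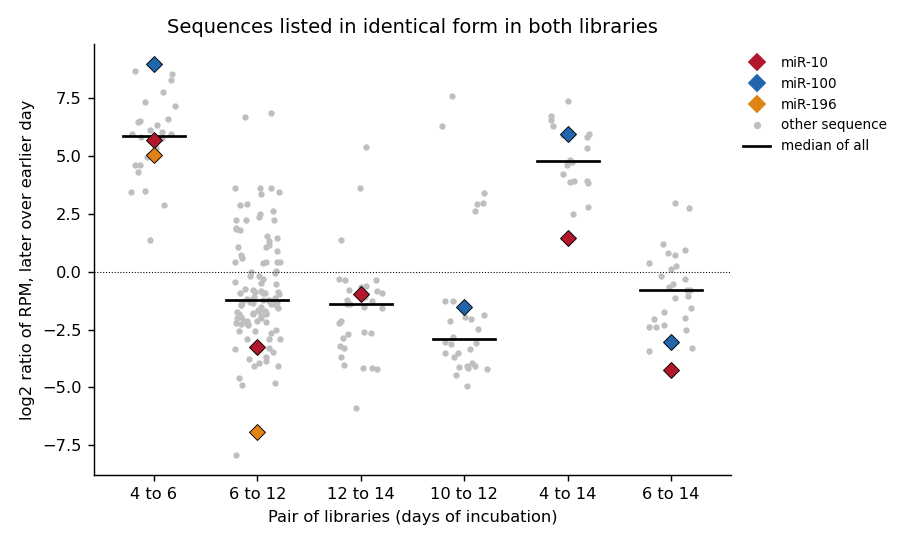
Log2 ratio of RPM, later over earlier day, of every sequence listed in identical form in both libraries of a pair, with miR-10, miR-100 and miR-196 as coloured diamonds and the median of all as a bar. miR-100 is highest from day 4 to 6 at 8.99, and miR-10 is lowest from day 4 to 14 at 1.45 and from day 6 to 14 at -4.23.

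Ratios within a library do not depend on its total. The reads of miR-10 were 345 (254 to 482) times those of miR-100 on day 4, 34.8 times on day 6 and 2.54 times on day 8. On day 10 the order was turned, with a ratio of 0.103, and on days 12 and 14 miR-10 led again by 3.41 and 15.2 (13.2 to 17.6) times. Both forms had 22 nt on days 4, 6 and 14, and within these days the ratio on day 14 was below that on day 6 and far below that on day 4. On day 12 a 22-nt miR-10 was set against a 21-nt miR-100, and on days 8 and 10 the miR-10 form had the shifted start. The reads of miR-10 exceeded those of miR-196 by 322 (218 to 498) times on day 10 and by 12380 (9986 to 15543) times on day 12, the lowest and the highest of the 5 ratios.

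miR-100 outnumbered its near copy miR-99 wherever both were listed. miR-99, from chromosome 1, had 20 and 10823 reads on days 4 and 6, then 12291, 109883 and 153 reads on days 10, 12 and 14, and it was not among the lines analysed of day 8. The ratio of miR-100 to miR-99 was 2.05 (1.17 to 3.69) on day 4 and 6.39 on day 6, and in the libraries of days 10, 12 and 14 it was 6.37, 2.74 and 1.36 (1.10 to 1.69). Both forms had 21 nt on day 10, while on day 12 a 21-nt miR-100 was set against a 22-nt miR-99. The ratios of days 10, 12 and 14 are therefore not a series of like forms. With both forms at 22 nt, the ratio of day 6 was above that of days 4 and 14 beyond the counting intervals, and the intervals of days 4 and 14 overlapped. The third gene of these clusters, miR-125, was not among the lines analysed of any day, where the lowest listed lines had 2 to 6 reads. let-7, which represses growth genes and marks differentiated tissue, stood at 76.3 RPM on day 4, summed over its 4 listed sequences. Its sums were 2759, 2165 and 8743 RPM on days 6, 8 and 10. They were 25134 RPM on day 12, over 12 sequences, and 2260 RPM on day 14. Of the listed reads let-7 held 1.21% on day 4 and 0.768% on day 6.

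**Figure D5:**
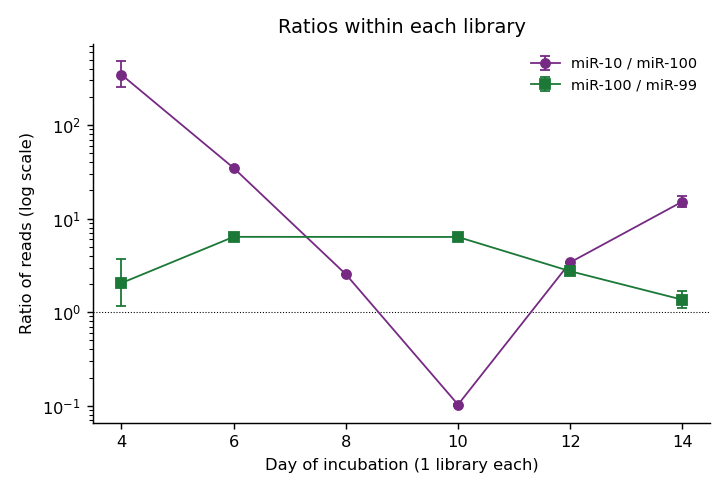
Ratio of reads (log scale) of miR-10 to miR-100 and of miR-100 to miR-99 within each library, by day, with 95% counting intervals as bars. The first ratio runs from 345 on day 4 to 0.103 on day 10 and back to 15.2 on day 14, and the second lies between 1.36 and 6.39 on the 5 days that list miR-99. On day 12 the forms of each ratio differed in length.

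The lists also give the reads of the opposite arm of each hairpin, the strand that is usually discarded when a miRNA is loaded. The reads of these forms were set against those of the 1 mature form listed for the hairpin. This is not a ratio of whole arms, as other mature forms were not listed and the listed form differed between days. The main opposite-arm form of miR-10 and that of miR-100 are printed in lower case.
miR-10, opposite arm: acagattcgattctaggggaat
miR-100, opposite arm: caagcttgtatctataggtatg
On day 6 the miR-10 hairpin had 84 opposite-arm reads in 5 forms, or 34.9 (27.9 to 43.3) per 1000000 mature reads, and on day 12 it had 11 reads in 2 forms, or 10.7 (5.34 to 19.2). These were the 2nd lowest of 70 known loci with opposite-arm reads on day 6, where the median was 22085, and the 3rd lowest of 74 on day 12, where the median was 11800. Beside its shifted 21-nt form of day 10 the miR-10 hairpin had 1 such read, or 124 (3.15 to 693). That line had no miRBase name and was not ranked. The known loci numbered 132 on day 6, 94 on day 10 and 142 on day 12, and those without such reads were not ranked. A locus of few mature reads could enter only with a high ratio, so these ranks and medians also depend on the number of mature reads. The miR-100 hairpin was lowest of the 70 on day 6 with 2 reads, or 28.9 (3.50 to 104) on the same scale, and 2nd lowest of 57 on day 10 with 8 reads, or 102 (44.1 to 201). On day 12 it had 583 reads, or 1935 (1781 to 2099), the 24th lowest of 74. The miR-196 hairpin of chromosome 27 had 6 such reads on day 6 and 1 each on days 8 and 10, and that of chromosome 2 had none listed. Per 1000000 mature reads, undivided between its loci, this was 2393 (878 to 5209) on day 6, the 17th lowest of 70. On day 10 it was 40000 (1013 to 222866), the 39th lowest of 57.

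Forms listed beside the same mature sequence on both days can be matched. The printed miR-10 form had 53 reads on day 6 and 7 reads on day 12, which was 0.309 (0.119 to 0.682) times as many per mature read, the 79th highest ratio of 101 forms matched between these days. The other matched miR-10 form, with 10 and 4 reads, had a ratio of 0.936 (0.214 to 3.24). The printed miR-100 form had 8 reads on day 10 and 579 on day 12, both beside the 21-nt mature form, and per mature read this was 18.8 (9.48 to 43.7) times as many on day 12. That ratio was the 6th highest of 15 such forms, whose median log2 ratio was 2.26. The printed form was not among those of miR-100 on day 6, where the mature form had 22 nt.

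The families whose course over the 6 days was most like that of miR-100 and of miR-10 were found by the root mean square difference of log2(RPM + 1), each centred on its own mean, among 56 families listed in at least 4 libraries. A family not listed on a day entered as 0 RPM, although the lowest listed line of day 14 had 26.3 RPM. For miR-100 they were miR-101 at 0.858, miR-130 at 1.17 and miR-2964 at 1.39, beside a median of 2.69 over the 56. miR-101 had 4962 RPM on day 10, its highest level, and 96.4 RPM on day 14. Both miR-101 and miR-2964 entered day 4, the lowest day of miR-100, as 0. For miR-10 the nearest were miR-6631 at 1.44, miR-205, an epithelial miRNA, at 1.52 and miR-302, a miRNA of pluripotent cells, at 1.57, beside a median of 3.09. All 3 were highest on day 6 like miR-10, though miR-6631 had no level above 6.49 RPM, and both miR-6631 and miR-302 entered days 4 and 14 as 0. This likeness is over 6 libraries of very different depth and carries no test.

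The deposited predictions of targets covered only 10 miRNAs and held no line for miR-10 or miR-100, which says nothing about the targets of these. For miR-196 there were 13 lines on day 4 and 12 on day 8, and none of the HOX and other genes looked for was named in them. The 12 pairs of score and energy on day 8 stood in the same order as on day 4, while the names of the targets beside them were different in every line and alphabetical on both days. The highest pair, a score of 454 with -49.06 kcal/mol, stood beside Q68V06_CHICK on day 4 and Q6PKI7_CHICK on day 8, and the next, 332 with -36.77 kcal/mol, beside RASL12 and RNF207. No target of miR-196 is therefore reported. The repeated order of pairs was not particular to miR-196. It held for 74 of 74 lines of miR-204 on day 8, but for 21 of 67 of miR-181a-5p and 0 of 116 of miR-103.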

How the data were processed

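For each library the authors deposited lists of known miRNAs and of sequences without a miRBase name with the count of reads of each sequence, after mapping tags with BLAT to Gallus gallus v.2.1 with at most 1 mismatch and comparison with miRBase. The RPM values deposited by the authors equalled the count times 1 constant per library. The authors also deposited a score and an energy for each predicted target. The submitters' processing notes name TopHat and Cufflinks, with no version.

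Here the lines were read with Python 3.11.15 and pandas 2.3.3, and figures were drawn with Matplotlib 3.10.9. RPM was computed as count times the constant, because on day 4 deposited values of lines without a miRBase name stood beside other names. Lines without an abundance were not used. On day 10 these were 366 lines of the known list, 363 of them with a sequence but the name NA, and 361 of those sequences stood with their abundance in the list without miRBase names, which was used. Each sequence was added once per library. The named miRNAs are the members, miR-99, miR-125 and let-7 as cluster partners, the 3 families nearest in course, fixed markers and the 5 best-scoring targets; miR-26 and miR-148 were named after their values were seen. The members and lists were chosen with earlier results of these data known. Intervals are 95% exact Poisson, Wilson or ratio intervals (SciPy 1.17.1, NumPy 2.4.6), of counting error only, as PCR reads are not independent molecules. The calculation of ratios was tried on simulated data, which checks the calculation only and is no test of a difference between days. The alternatives were other scales, overlap minimums of 10 and 20 nt, known lines only, 22-nt sequences only, and a filter of 10 reads.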

Additional observations from a re-analysis of the deposited data

How the results depend on the processing

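The day of the highest level was day 6 for miR-10 and miR-196 and day 10 for miR-100. As a share of the known miRNA reads of the library, it became day 4 for both miR-10 and miR-196. Relative to clean reads it became day 6 for miR-100, narrowly above day 12. With sequences of 22 nt only it also became day 6 for miR-100 (7478 RPM), as no 22-nt form was listed on days 8, 10 and 12. The day 10 peak of miR-100 is therefore that of a 21-nt form set against forms of other lengths. The miR-10 log2 ratio of day 12 over day 6, -3.25 in RPM, was -2.45 as a share of known reads, -3.36 relative to clean reads and -2.01 after subtracting the median of all exact sequences, a setting chosen after seeing the data. That of miR-100, 0.10 (0.092 to 0.115) in RPM, was 0.90 as a share and -0.0096 relative to clean reads, a change of sign. The last value is smaller than the width of the counting interval, so its sign is not read as a direction. With sequences of 22 nt only the ratio of miR-100 had no value, as 21 nt was listed on day 12. Further settings were other overlap minimums, known lines only, a filter of 10 reads, the highest sequence alone and adding each locus. They gave the same days of the highest level and the same ratios. The ratios could not have changed, so this is no evidence of robustness. On days 6 and 12 miR-10 and miR-100 each had 1 known sequence at 1 locus, with far more than 10 reads. Their highest days were likewise fixed, as known lines only removed other days. For miR-196, adding each locus changed levels, to 542 RPM on day 6 and 16.5 RPM on day 4. Families past 2-fold numbered 59 of 85 (16 higher and 43 lower), 55 on the share scale (26 higher and 29 lower), 53 of 78 with at least 10 reads in both libraries and 53 of 75 from known lines only.

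No paired analysis was possible because each stage was 1 library. Levels between days rest on RPM totals that differ by library, and small shares on days 4 and 14 are limited by 17575 and 16000 listed reads.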
